A study of Mus musculus with 2 samples.

Results

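Early absorptive progenitors of the mouse small intestine were taken as cell barcodes with at least 1 UMI each of Aldh1b1, Oat and Gpx2. A UMI, or unique molecular identifier, counts 1 captured RNA molecule. The barcodes had at least 500 detected genes and under 25% mitochondrial UMIs. They also had 0 UMIs of Ptprc, the pan-leukocyte gene, and of Lgr5, under 2 UMIs of Olfm4, at most 2 of Apoa4, and under 3 in sum of the cell division genes Top2a, Mki67, Ube2c, Cdk1, Birc5 and Pclaf. These barcodes, called members here, numbered 431 of the 11862 that passed the limits on genes and mitochondrial UMIs. Control 1 held 329 of 7120 (4.62%, 95% exact binomial interval 4.14% to 5.13%) and control 2 held 102 of 4742 (2.15%, 1.76% to 2.61%). The intervals cover counting error only. All choices rest on transcripts of the same cells, so the genes of the gate are described below and not tested.

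The series concerns mice with reduced M1 or M3 muscarinic acetylcholine receptors, and its single cell libraries came from control mice labelled C57BL/6, with no altered allele named. Control 1 is titled an M1 control and control 2 an M3 control, so the study's single group has 2 libraries, and what differs between the kinds of control cannot be told apart from library. Each suspension from the proximal small intestine pooled a villus fraction freed with cold EDTA and a crypt fraction freed with TrypLE, a trypsin-like enzyme mix, and went into 10x Genomics Chromium 3' libraries. The labels give no age for the mice and do not say how many animals stand behind a library. Values of a pair of libraries are given as control 1 first and control 2 second.

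In the intestinal crypt, stem cells that express Lgr5 and Olfm4 divide, and their daughters take an absorptive or a secretory fate as they move towards the villus, with Notch signalling favouring the absorptive one. Absorptive daughters divide further, stop dividing and become enterocytes, which build a brush border, take up nutrients and load fat onto lipoproteins that carry Apoa1 and Apoa4. Aldh1b1 encodes a mitochondrial aldehyde dehydrogenase, Oat the mitochondrial ornithine aminotransferase that links ornithine to glutamate and proline, Gpx2 a glutathione peroxidase of the gut epithelium, and Krt19 a keratin of simple epithelia.

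The sequence just upstream of the genes that open the gate is shown because every member was chosen by transcripts of these genes; the 3' libraries do not show which start site a transcript came from. In GRCm38 coordinates, Aldh1b1 lies at chr4:45799022-45804604 on the plus strand, Oat at chr7:132557478-132576398 and Gpx2 at chr12:76792333-76795554, both on the minus strand. The windows are the 250 bases before the RefSeq start (GRCm38.p6), at chr4:45798772-45799021, chr7:132576399-132576648 and chr12:76795555-76795804, each written 5′ to 3′ on the gene's strand. Capitals mark CTTTGA, the core that TCF and LEF factors bind, or TGANNNNGC, the core of the antioxidant response element, on either strand.
Aldh1b1: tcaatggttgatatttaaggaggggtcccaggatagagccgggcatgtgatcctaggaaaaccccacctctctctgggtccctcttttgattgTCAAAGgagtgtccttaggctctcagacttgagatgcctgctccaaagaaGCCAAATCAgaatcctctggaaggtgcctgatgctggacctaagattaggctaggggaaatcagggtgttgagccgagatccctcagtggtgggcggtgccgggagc
Oat: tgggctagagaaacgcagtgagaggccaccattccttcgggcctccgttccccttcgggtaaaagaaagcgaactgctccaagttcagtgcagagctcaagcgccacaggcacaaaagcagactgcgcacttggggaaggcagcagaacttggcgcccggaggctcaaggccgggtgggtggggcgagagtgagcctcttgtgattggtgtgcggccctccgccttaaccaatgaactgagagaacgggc
Gpx2: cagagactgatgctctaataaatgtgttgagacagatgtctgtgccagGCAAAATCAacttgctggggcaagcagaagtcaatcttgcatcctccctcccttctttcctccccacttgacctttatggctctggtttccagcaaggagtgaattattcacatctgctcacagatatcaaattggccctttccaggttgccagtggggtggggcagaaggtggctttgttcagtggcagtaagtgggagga
The Aldh1b1 window held 1 match of CTTTGA and 1 of TGANNNNGC, which do not overlap, the Gpx2 window held 1 match of TGANNNNGC, and the Oat window held neither. Of 32851 RefSeq promoter windows of this length, 13.8% held CTTTGA and 35.2% held TGANNNNGC. A match describes the letters only.

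Levels are given as UMIs of a gene scaled to a common UMI total of the summed cells (CPM). Aldh1b1 stood at 406 and 358 CPM in members and by rule at 0 in enterocytes, which were defined as barcodes with at least 1% of UMIs from Fabp1, Fabp2 and Rbp2 (fatty acid and retinol carriers) and with 0 UMIs of Aldh1b1 and Ptprc. Oat stood at 904 and 828 CPM in members and 231 and 206 in enterocytes. Gpx2 stood at 632 and 399 CPM in members and 137 and 166 in enterocytes. Detection of these genes rested on few molecules. Exactly 1 UMI of Aldh1b1 was present in 161 and 47 members, exactly 1 of Oat in 64 and 24, and exactly 1 of Gpx2 in 97 and 43. Among barcodes with Ptprc, which should lack these genes, 103 of 3030 (3.40%) and 37 of 2055 (1.80%) held all 3 genes, at a median of 5156 and 4567 UMIs against 4125 and 3525.5 in members. All barcodes with the 3 genes numbered 771 and 244, and 103 and 37 of these carried Ptprc. For scale, members were 4.62% and 2.15% of all barcodes that passed, after further limits. Detection of the 3 genes in a barcode thus does not by itself mark an epithelial cell, and what lies behind it in Ptprc barcodes was not tested.

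Krt19, the marker of the label that the gate did not use, was high in members of both libraries. It stood at 2085 and 1206 CPM in members against 416 and 306 in enterocytes, so the libraries did not overlap. Members were higher by 1.81 ± 0.36 (SE) on the log2 scale (n = 2 libraries a set, edgeR quasi-likelihood test with library as a block, Benjamini-Hochberg adjusted p = 0.00183). At least 1 Krt19 UMI was present in 90.9% and 83.3% of members, 40.4% and 33.2% of enterocytes and 14.1% and 13.2% of barcodes with Ptprc. With each cell thinned to 2000 UMIs and shallower cells left out, the shares were 85.3% of 285 and 81.5% of 81 members, 40.0% and 30.5% of enterocytes, and 8.84% and 8.01% of Ptprc barcodes. On this marker the members followed their label.

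Sequencing yielded 54451793 UMIs in 9342 barcodes of control 1 and 36139325 UMIs in 7109 barcodes of control 2. Members had a median of 4125 and 3525.5 UMIs and 1422 and 1300.5 detected genes, against 2052 and 2055 UMIs in 2496 and 1693 enterocytes. Members with 1% or more mitochondrial UMIs, 43 and 18 of them, held 27.5% and 50.9% of the members' UMIs. The libraries shared 17 cell barcodes. Scrublet, a doublet caller, marked 5 and 28 barcodes and 0 members, and at 0.0702% of control 1 it did not work there, so doublets were not removed.

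On secretory markers a minority of members went against the label, with 2% or more of their UMIs from such a list. They are counted under the list that took the largest share. Goblet markers (Muc2, Fcgbp, Zg16, Clca1, Tff3, Agr2, Spink4 and Spdef, genes of mucus secretion) led in 2 members of control 1 (3.28% to 52.3%) and 5 of control 2 (11.6% to 55.3%). Markers of enteroendocrine cells, the hormone-secreting cells, led in 4 members (2.86% to 24.4%) and 3 members (8.97% to 18.2%). Markers of Paneth cells, the antimicrobial cells of the crypt base, led in 1 member of control 2, at 69.2%. These barcodes were deep, so that they held 10.1% and 44.2% of all member UMIs. Haemoglobin genes made up 5% or more of the UMIs in a further 2 and 1 members. These 18 barcodes were set aside in one form of each comparison, which left 321 and 92 members.

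**Figure D1:**
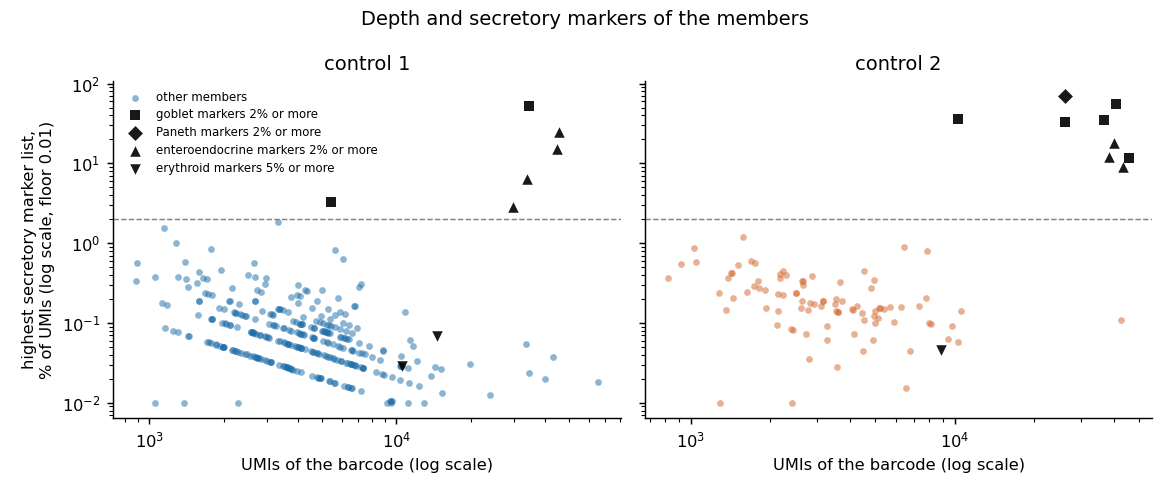
Each point is 1 member, placed by its UMIs and by the highest share of its UMIs taken by goblet, Paneth, enteroendocrine or tuft markers, both on log scales, for control 1 (left) and control 2 (right). The black squares, triangles and diamond above the dashed line at 2% are the secretory barcodes and span 5429 to 45855 UMIs.

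Markers of other cell types were summed in the same way. Myeloid markers summed to more in members of both libraries, at 155 and 199.7 CPM against 127 and 90.3 in enterocytes, with Lyz2, C1qb and Csf1r at 0 in the members of control 2. Of the 4 tested against enterocytes below, 1 was higher with all members, and without the barcodes set aside 0 were higher and 1 was lower. T and NK cell markers summed to 349 and 355 CPM in members and 609 and 642 in enterocytes. B and plasma cell markers summed to 39.5 and 63.2 CPM in members against 239 and 202, and Ms4a1 and Mzb1 were at 0 in the members of both libraries. Stromal markers held 2 and 0 UMIs in members. Of the 8 tuft markers, Dclk1, Trpm5 and Alox5ap were at 0 in the members of both libraries, with 16.1 and 8.62 CPM for the list. Genes of each of these lists also occurred in enterocytes, and their part in the results was not tested.

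The limits of the gate cut through continuous values. Members with 1 Olfm4 UMI, 18 and 6 of them, had a median of 36.0% and 16.4% ribosomal protein UMIs and 0.246% and 0.654% from Fabp1, Fabp2 and Rbp2. The 13 and 3 barcodes just outside, with 2 Olfm4 UMIs, had 44.7% and 11.1% ribosomal protein UMIs and 0.171% and 0.229% from the 3 carriers. At the other edge, the 42 and 16 members with 2 Apoa4 UMIs had a median of 7.96% and 4.59% of UMIs from the 3 carriers, and the 19 and 7 barcodes with 3 Apoa4 UMIs had 8.45% and 8.01%. Members with 2 UMIs of the cell division genes (17 and 8) had 0.417% and 0.275%, and the 10 and 4 barcodes with 3 UMIs had 0.50% and 0.219%. The cells on either side of each limit were thus alike in these shares, apart from the few Olfm4 cells of control 2 and the Apoa4 edge there.

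Members spread from the enterocyte transcript share of cycling cells to that of enterocytes. The share of UMIs from Fabp1, Fabp2 and Rbp2 had a median of 3.0% and 0.871% in members, 9.29% and 8.13% in enterocytes, where the rule sets a floor of 1%, and 0.243% and 0.126% in cycling cells. Cycling cells are the 128 and 42 barcodes that meet the gate except that the 6 cell division genes sum to 3 or more UMIs and Olfm4 and Lgr5 are free. In 222 of 329 members of control 1 and 47 of 102 of control 2 the carriers reached 1% or more. On a log scale the median of all members therefore lay nearer to enterocytes in control 1 and nearer to cycling cells in control 2. Without the set-aside barcodes the median of members was 3.06% and 1.03%, and in control 2 it then lay about midway. Of these members, 144 and 23 had 4% or more, with a median of 9.45% and 8.88%. On this share that part of the members stood at the level of enterocytes, which goes against a label of early progenitors.

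**Figure D2:**
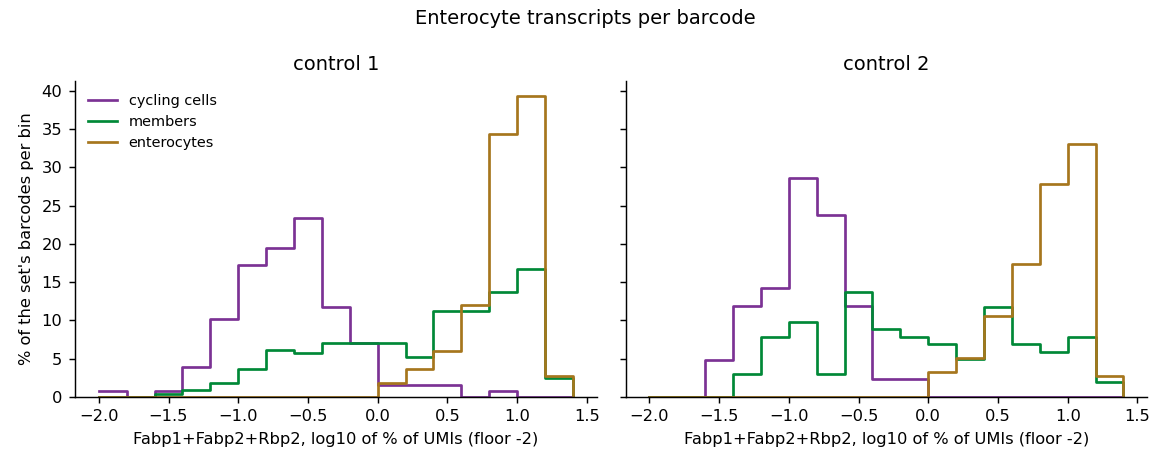
Histograms give the percentage of barcodes of each set (vertical axis) by the share of UMIs from Fabp1, Fabp2 and Rbp2 on a log10 scale (horizontal axis), for control 1 (left) and control 2 (right). Members spread over the gap between cycling cells, with a median of 0.243% and 0.126%, and enterocytes, with 9.29% and 8.13%.

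Ribosomal protein transcripts took less of the total in members with more enterocyte transcripts. After the 18 barcodes were set aside, members with under 1% of UMIs from the 3 carriers (101 and 45 cells) had a median of 33.0% and 19.2% ribosomal protein UMIs. Members with 1% to 4% (76 and 24 cells) had 23.6% and 15.3%, and members with 4% or more (144 and 23 cells) had 11.2% and 8.73%. Cycling cells stood at 30.9% and 18.5% and enterocytes at 4.37% and 3.6%. Over the cells, Pearson's r between both shares was -0.77 (n = 321) and -0.46 (n = 92) and Spearman's rho -0.83 and -0.48. With the 18 barcodes kept, both shares had an r of -0.73 (n = 329) and -0.35 (n = 102) and a rho of -0.76 and -0.21, so the relation was weak in control 2. This is a description, since both are shares of 1 total, the cells share a library and the bins were set after the values were seen. At every stage control 2 had the lower ribosomal protein share.

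**Figure D3:**
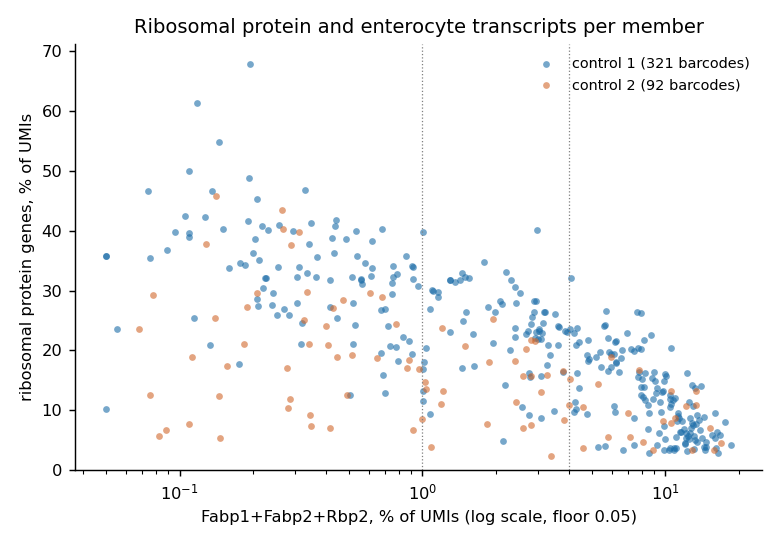
Each point is 1 member without the set-aside barcodes (321 in control 1, 92 in control 2), placed by the share of UMIs from Fabp1, Fabp2 and Rbp2 (log scale) and from ribosomal protein genes. Dotted lines mark the bins at 1% and 4%, across which the median ribosomal protein share went from 33.0% to 11.2% in control 1 and from 19.2% to 8.73% in control 2.

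Members were then compared with enterocytes of the same libraries over all genes that the rules did not use, from UMIs summed per set and library. Of 9615 genes tested, 1412 were higher in members (14.7%) and 1575 were lower (16.4%) at an adjusted p under 0.05. With UMI totals alone as the scaling, 72.0% of the calls in place of 47.3% were higher, and the median over all genes shifted from -0.06 to 0.29 on the log2 scale. Since a few deep barcodes weighed on the sums, the fit was repeated without the 18 set-aside barcodes and with every cell thinned to 2000 UMIs. In the former, the same limits also took barcodes out of the other sets. They left 2448 and 1655 enterocytes and 127 and 37 cycling cells. Without those barcodes 1390 of 9207 genes were higher (15.1%) and 1422 lower (15.4%), and with thinned cells 693 of 5414 were higher (12.8%) and 629 lower (11.6%). Of the 5404 genes tested in all 3 fits, 424 were higher in each (7.85%) and 567 were lower in each (10.5%). Counts for gene groups below are of these genes unless stated, medians are given for the 3 fits in that order, and the medians over all genes tested were -0.06, -0.01 and 0.02. The gate caps Apoa4, Olfm4, Lgr5 and the cell division genes, so genes that go with these were in part chosen with them. The same holds for genes that go with Aldh1b1, Oat and Gpx2, required of members. It holds too for those that go with Fabp1, Fabp2 and Rbp2, which have a floor in enterocytes, where Aldh1b1 is 0. Genes named to spell out a count, other than by the rule under the methods, were chosen after their values were seen.

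**Figure D4:**
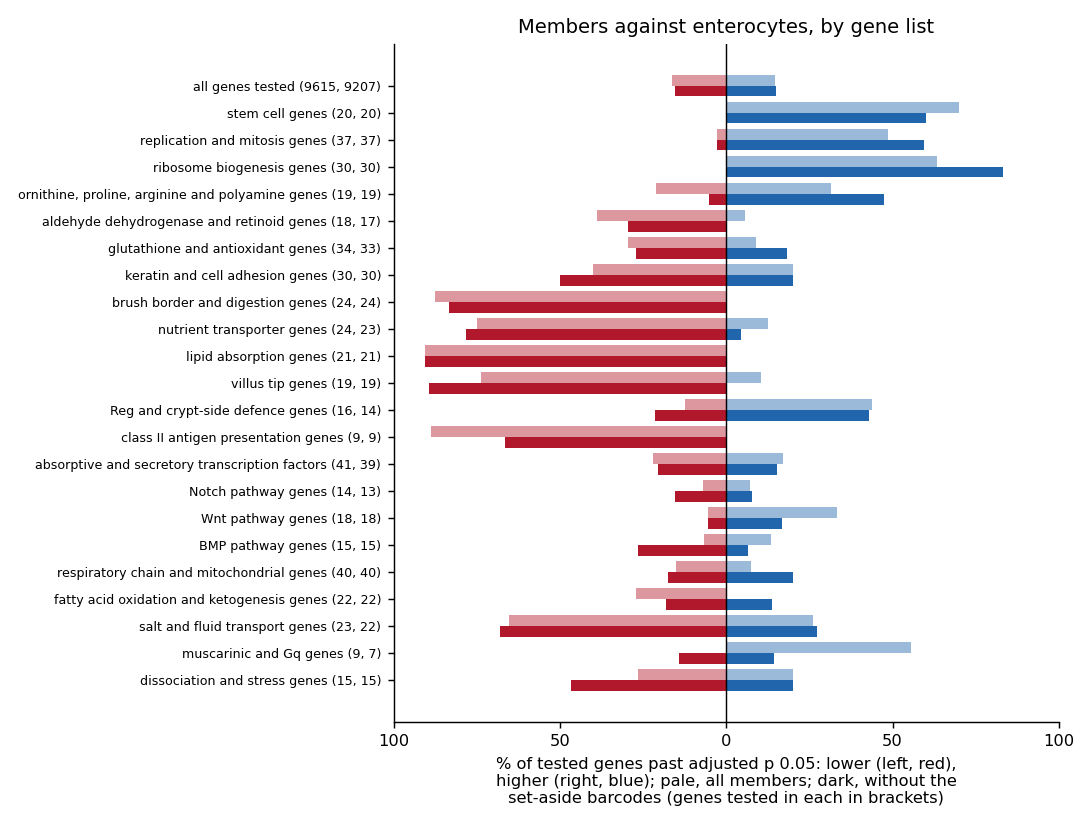
Bars give the percentage of the tested genes of each list that passed an adjusted p of 0.05 in members against enterocytes, lower to the left in red and higher to the right in blue, for all members (pale) and without the set-aside barcodes (dark). Stem, replication and ribosome biogenesis genes lie to the right and brush border, transporter, lipid and villus tip genes to the left, while over all genes 14.7% were higher and 16.4% lower with all members.

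Crypt genes were higher in members. Of the stem cell genes, 5 of 8 were higher in all fits (Cdca7, Prom1, Slc12a2, Sox4 and Sox9) and 0 were lower, with medians of 2.52, 2.03 and 2.42. Sox4, a progenitor transcription factor, stood at 26.5 and 35.9 CPM in members and 0.520 and 0.572 in enterocytes, a difference of 5.35 ± 0.41 (edgeR adjusted p = 4.85e-07; 4.86 without the set-aside barcodes and 5.77 in thinned cells). Slc12a2, the basolateral chloride importer of crypt cells, stood at 28.6 and 50.3 against 1.56 and 2.48 CPM, higher by 3.88 ± 0.33 (edgeR adjusted p = 1.13e-06; 3.82 without the set-aside barcodes and 2.72 in thinned cells). Without the set-aside barcodes Slc12a2 stood at 29.3 and 21.1 CPM and Sox4 at 15.3 and 10.5. Both libraries of members lay above both of enterocytes for these genes. The levels were not spread evenly over members. Sox4 was at 45.8 and 22.1 CPM in the members with under 1% carrier UMIs and at 0 and 0 in those with 1% to 4%, and Slc12a2 at 89.8 and 38.6 and then 2.53 and 9.42.

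Genes of DNA replication and mitosis were higher too, although the gate admitted at most 2 UMIs of 6 such genes. In all fits 14 of 33 were higher and 1 was lower, Cdkn1a, an inhibitor of cell division, with medians of 1.45, 1.91 and 1.45. The cyclins that drive entry into the cycle stood out. Ccnd1 was at 27.0 and 54.6 CPM in members and 1.69 and 2.10 in enterocytes, higher by 3.94 ± 0.35 (edgeR adjusted p = 1.67e-06; 4.48 without the set-aside barcodes and 4.46 in thinned cells). Ccnd2 was at 138 and 218 against 17.6 and 23.7 CPM, higher by 2.73 ± 0.27. Dut, which keeps uracil out of DNA, was at 35.9 and 31.6 against 3.77 and 3.63, and Stmn1, a microtubule regulator of dividing cells, at 82.2 and 58.9 against 13.1 and 6.30. Cdkn1a, by contrast, was at 205 and 188 in members and 252 and 295 in enterocytes, a difference of -0.84 ± 0.26 (edgeR adjusted p = 0.0258). Along the bins of members Ccnd1 went from 84.3 and 177 CPM under 1% to 10.1 and 0 at 1% to 4% and 2.62 and 0 at 4% or more, so its transcripts lay mostly in the first bin.

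Most ribosome biogenesis genes were higher. Of those tested, 18 of 23 were higher in all fits and 0 lower, with medians of 1.31, 1.78 and 1.91. Fbl, the methyltransferase of ribosomal RNA, stood at 73.3 and 66.1 CPM against 8.06 and 10.5, higher by 2.59 ± 0.28 (edgeR adjusted p = 1.21e-05). Gar1, Dkc1 and Nolc1, which belong to or assemble the particles that modify ribosomal RNA, were higher by 3.05 ± 0.36, 2.76 ± 0.34 and 2.64 ± 0.34. Impdh2, the rate-limiting enzyme of guanine nucleotide synthesis, stood at 74.4 and 77.6 against 4.29 and 3.82 CPM, higher by 3.85 ± 0.29 (4.33 without the set-aside barcodes and 4.15 in thinned cells). Ptma, a chromatin-associated protein of growing cells, stood at 977 and 1072 against 146 and 119 CPM. Of the mitochondrial list 3 of 40 were higher in all fits, the chaperones Hspd1 and Hspe1 and Idh2, a dehydrogenase that makes NADPH. Lower were 5 of 40, Cox6a1, Cox6c and Cycs of the respiratory chain, citrate synthase Cs and the ADP carrier Slc25a5. Both counts were near the 7.85% and 10.5% of all genes, and the list medians of -0.56, 0.04 and -0.12 differ in sign. Cox6c was at 2472 and 1522 against 3329 and 3366 CPM, a difference of -1.12 ± 0.39 (edgeR adjusted p = 0.0394). Hspd1 was at 317 and 322 against 60.6 and 66.6 CPM, higher by 1.97 ± 0.29 (edgeR adjusted p = 0.000163).

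Keratin, junction and defence genes split in direction. Of the keratin and adhesion list, 5 of 25 were higher (Cd9, Cldn2, Krt18, Krt19 and Krt7) and 6 were lower (Cdhr2, Cdhr5, Ceacam1, Ceacam20, Cldn7 and Krt20). Cldn2, the claudin that makes crypt junctions leaky to cations, stood at 15.1 and 25.9 CPM in members and 0.130 and 0.572 in enterocytes, higher by 5.50 ± 0.53 (edgeR adjusted p = 3.73e-06; 5.93 without the set-aside barcodes and 4.91 in thinned cells). Krt7 stood at 90.0 and 122 against 5.46 and 4.39 CPM, and 42.3 and 63.3 without the set-aside barcodes. Krt20, the keratin of differentiated epithelium, stood at 289.7 and 375 against 806 and 1088 CPM, a difference of -1.87 ± 0.30 (edgeR adjusted p = 0.000394). In the defence list, Dmbt1 and Lypd8, secreted and surface proteins that bind bacteria, were higher and Pigr, which carries IgA across the cell, was lower. Dmbt1 stood at 251 and 280.2 against 8.19 and 20.8 CPM, higher by 4.01 ± 0.39 (edgeR adjusted p = 4.02e-06; 4.70 without the set-aside barcodes and 3.93 in thinned cells), and it went from 841 and 988 CPM in the bin under 1% to 9.16 and 0 in the bin of 4% or more.

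Of the transcription factors, 4 of 36 were higher (Ehf, Hes1, Sox4 and Sox9) and 2 were lower, Klf4 among them, against 7.85% and 10.5% of all genes. Hes1, the main Notch target that represses secretory fate, stood at 66.6 and 57.5 CPM in members and 14.4 and 10.7 in enterocytes, higher by 1.94 ± 0.26 (edgeR adjusted p = 7.37e-05; 2.39 without the set-aside barcodes and 2.22 in thinned cells). It was at 97.2 and 121, 101 and 56.5 and 35.3 and 43.5 CPM through the 3 bins. Ehf, an ETS factor, stood at 33.3 and 38.8 against 4.29 and 1.72. Klf4, a factor of cells that have left the cycle, stood at 50.5 and 121 against 254 and 289.7 CPM (difference -2.17 ± 0.29), and at 28.2 and 39.5 without the set-aside barcodes. Factors of intestinal identity did not pass the test with all members. Hnf4a stood at 157 and 221 CPM in members and 116 and 179 in enterocytes (difference 0.01 ± 0.25, edgeR adjusted p = 0.972), Hnf4g at 260.1 and 316 and 222 and 268 (-0.13 ± 0.27, edgeR adjusted p = 0.749) and Cdx2 at 156 and 96.3 and 112 and 103 (-0.15 ± 0.26, edgeR adjusted p = 0.683). A p above the threshold does not show that the levels are alike. Levels are scaled by UMI totals and differences by TMM factors, so a small difference can have the opposite sign to its levels, as for Hnf4g and for Odc1 below. Among 5 Notch genes Hes1 alone passed in all fits, and among 13 Wnt genes Ccnd1 was higher and Sp5 lower. Of 15 BMP genes 2 were higher with all members, the receptors Acvr1 and Bmpr1a, and both changed sign without the set-aside barcodes (from 1.77 to -0.68 and from 1.07 to -0.06).

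The machinery of the mature enterocyte was lower in members, in part by the rules that chose both sets. Of the lipid absorption genes, 17 of 20 were lower in all fits and 0 were higher, with medians of -2.25, -1.99 and -1.41. Apoa1, the main protein of high density lipoprotein, stood at 487 and 547 CPM in members and 7950.2 and 9144 in enterocytes, a difference of -4.42 ± 0.44 (edgeR adjusted p = 4.4e-06; -3.74 without the set-aside barcodes and -3.17 in thinned cells). Apoc3 stood at 262 and 103 against 2356 and 2086 CPM and Apoc2 at 556 and 411 against 5118 and 4050.4, both apolipoproteins of triglyceride-rich particles. Cd36, a fatty acid receptor, stood at 4.16 and 4.31 against 35.0 and 38.7. Cd36 rested on 8 and 3 UMIs in members. In the cycling cells Apoa1 stood at 123 and 70.7 CPM, Apoc3 at 42.8 and 22.5 and Apoc2 at 92.4 and 33.8. These 3 were higher in members than there, Apoa1 by 2.56 ± 0.41 (edgeR adjusted p = 0.000511), and the share of free RNA in any of the levels was not tested. Apoa1 was at 125 and 281, 502 and 1808 and 819 and 1271 CPM in the bins of members. It was below enterocytes in the bin with 4% or more carrier UMIs as well, where the cap on Apoa4 still held.

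Brush border and digestion genes followed, with 15 of 21 lower in all fits, 0 higher and medians of -2.20, -1.88 and -1.46. Tmprss15, the enteropeptidase that activates trypsinogen, stood at 2.08 and 7.18 CPM against 114 and 93.7, a difference of -5.20 ± 0.44 (edgeR adjusted p = 1.08e-06). Treh, the trehalase, stood at 8.32 and 2.87 against 133 and 104 and Lct, the lactase, at 14.6 and 10.1 against 191 and 152. Sis, the sucrase-isomaltase, was nearer to enterocytes, at 661 and 588 against 888 and 888 CPM, with a difference of -0.84 ± 0.45 (edgeR adjusted p = 0.174). Of the nutrient transporters, 11 of 14 were lower and 0 higher. Slc46a1, the proton-coupled folate transporter, stood at 6.24 and 5.75 against 85.3 and 83.4 CPM, and Slc5a1, the sodium-glucose transporter, at 83.7 and 102 against 506 and 513 (difference -2.83 ± 0.34). Slc5a1 was highest among members in the middle bin, at 139 and 329.6 CPM, against 84.3 and 66.2 below and 73.3 and 119.5 above it.

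Villus tip genes were lower as well, 13 of 15 in all fits with medians of -1.71, -1.98 and -1.59. Clca4a, a secreted protein of the upper villus, stood at 1.56 and 7.18 CPM in members and 223 and 367 in enterocytes, a difference of -6.72 ± 0.39 (edgeR adjusted p = 7.13e-08; -6.49 without the set-aside barcodes and -4.07 in thinned cells). Ada, adenosine deaminase, stood at 28.1 and 25.9 against 919.6 and 902 CPM, low in each of the members' bins (20.2 and 33.1, 15.2 and 47.1 and 43.2 and 21.7). Enpp3, a nucleotide pyrophosphatase, stood at 7.28 and 40.2 against 233 and 221 CPM, and at 3.52 and 15.8 without the set-aside barcodes. Over all genes, further large falls were in Ly6m (2.60 and 4.31 against 219 and 154 CPM), Slc5a12, a lactate transporter (1.56 and 1.44 against 56.3 and 53.8), and Cyp3a11, a drug-metabolizing cytochrome P450 (29.1 and 10.1 against 738 and 378). Pmp22, a small membrane protein, had 0 UMIs in members of both libraries and 947 in enterocytes, which makes it at least 63.9-fold lower, with 3 counts over both libraries as the floor. In the members with 4% or more carrier UMIs, Clca4a was at 2.62 and 10.9 CPM, Enpp3 at 5.24 and 10.9 and Ada at 43.2 and 21.7. These 3 genes were thus below enterocytes in that bin too, where the cap on Apoa4, itself on the villus tip list, still held. Fos and Junb, immediate early genes, are on the villus tip list and also on the list of dissociation and stress genes. On the latter, 3 of 11 were lower in all fits (Fos, Jun and Junb) and 2 were higher, the chaperones Hsp90aa1 and Hsph1, with medians of -0.16, -0.75 and -0.24. Fos stood at 56.2 and 21.6 CPM in members and 108 and 86.6 in enterocytes (-1.71 ± 0.30), and Hsp90aa1 at 258 and 243 and 93.1 and 79.2 (1.18 ± 0.27). The villus and crypt fractions were freed by different steps, and whether this bears on the villus tip count was not tested here.

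Class II antigen presentation genes were lower in members, 6 of 8 in all fits, with medians of -2.23, -1.68 and -2.06. H2-Aa stood at 38 and 14.4 CPM against 228 and 249, a difference of -3.36 ± 0.44 (edgeR adjusted p = 5.35e-05), and Cd74, the invariant chain, at 139 and 159 against 595 and 783 (-2.52 ± 0.43). The sums of T, NK, B and plasma cell markers given above were lower in members too and the myeloid sum was higher, and their part in this was not tested. In salt and fluid transport, 3 of 18 genes were higher (Car4, Kcne3 and Slc12a2) and 7 were lower. Kcne3, the subunit that keeps the crypt potassium channel Kcnq1 open, stood at 34.8 and 30.2 against 1.30 and 0.572 CPM, higher by 4.65 ± 0.38 (edgeR adjusted p = 8.31e-07; 5.30 without the set-aside barcodes and 4.70 in thinned cells). Kcnq1 itself stood at 20.8 and 25.9 against 1.04 and 1.14 and was higher by 3.99 ± 0.39, but with thinned cells the edgeR adjusted p was 0.0813.

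The pathways that the gate genes belong to did not move as blocks. In the ornithine, proline and polyamine list, without Oat, 1 of 17 was higher in all fits (Cps1) and 1 lower (Oaz1), with medians of -0.07, 0.35 and 0.28 that differ in sign between fits. Cps1, which makes carbamoyl phosphate for citrulline and arginine synthesis, stood at 82.2 and 94.8 CPM in members and 21.9 and 34.3 in enterocytes, higher by 1.35 ± 0.28 (edgeR adjusted p = 0.00254; 1.96 without the set-aside barcodes and 2.07 in thinned cells). Asns, asparagine synthetase, stood at 30.2 and 35.9 against 9.10 and 9.16 and Amd1, of polyamine synthesis, at 15.6 and 15.8 against 6.24 and 2.86, both past the threshold with all members. Odc1, the enzyme that uses ornithine for polyamines, stood at 85.3 and 81.9 against 83.2 and 58.8 CPM (difference -0.12 ± 0.26, edgeR adjusted p = 0.756). Arg2, the mitochondrial arginase, stood at 1289 and 509 against 1384 and 819 (difference -0.71 ± 0.36, edgeR adjusted p = 0.15).

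In the aldehyde dehydrogenase and retinoid list, without Aldh1b1 and Rbp2, 0 of 11 were higher in all fits and 3 were lower (Aldh4a1, Dgat1 and Rdh7), with medians of -0.70, -0.34 and -0.26. Aldh4a1, the proline-degrading dehydrogenase that acts beside Oat, stood at 5.20 and 4.31 CPM in members and 40.6 and 31.1 in enterocytes, a difference of -3.26 ± 0.39 (edgeR adjusted p = 4.17e-05). Aldh1a1, a cytosolic retinal dehydrogenase, stood at 251 and 129 against 266 and 209 CPM, a difference of -0.73 ± 0.27 with an edgeR adjusted p of 0.0502. Of the glutathione and antioxidant genes, without Gpx2, 1 of 32 was higher (Gpx1, the widespread peroxidase, 1497 and 961 against 421 and 310.5 CPM) and 7 were lower (Cat, Gclm, Ggt1, Gpx4, Gstm1, Prdx5 and Srxn1). Ggt1, which breaks down glutathione at the surface, stood at 55.7 and 21.6 against 343 and 266 CPM, a difference of -3.36 ± 0.31 (edgeR adjusted p = 2.58e-06), and Prdx5, a peroxiredoxin, at 655 and 388 against 1587 and 1615. In the dehydrogenase and glutathione lists more genes thus passed as lower than as higher in all fits, which was not so in the ornithine list.

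Members and cycling cells of the same gate differ by rule in the cell division genes and also in Olfm4 and Lgr5, which are limited in members and free in cycling cells (0 against 35 UMIs of Lgr5). Of 9615 genes, 1072 were higher in members (11.1%) and 936 were lower (9.73%). Without the set-aside barcodes, and with the same limits on cycling cells, 1824 were higher (19.8%) and 1256 lower (13.6%). With thinned cells 647 were higher (12.0%) and 406 lower (7.50%). Of the 5404 genes tested in all 3 fits, 411 (7.61%) were higher and 292 (5.40%) lower in each. With UMI totals alone, 42.4% of the calls in place of 53.4% were higher, and the median over all genes went from -0.03 to -0.17. Both sets are small, with 42 cycling cells in control 2, and both comparisons share the members' sums. Replication and mitosis genes outside the rule were lower, 23 of 33 in all fits, with Cdkn1a higher. The 6 cell division genes split the sets, so genes that go with them were in part chosen with them. Nusap1, a spindle protein, stood at 0.520 and 0 CPM in members and 196 and 185 in cycling cells, a difference of -8.62 ± 0.53 (edgeR adjusted p = 4.22e-07). Hmmr, another spindle gene, had 0 UMIs in members and 91 in cycling cells, so it was at least 44.4-fold lower. Other mitotic genes, Pbk, Plk1, Tpx2, Kif11 and Cenpf, had log2 fold changes between -6.41 and -6.03. Replication transcripts were still present in members, with Stmn1 at 82.2 and 58.9 CPM against 957 and 564 and Dut at 35.9 and 31.6 against 225 and 124.

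Stem and ribosome biogenesis genes lay between the sets. Against cycling cells 5 of 8 stem genes (Ascl2, Cdca7, Slc12a2, Sox4 and Sox9) and 15 of 23 ribosome biogenesis genes were lower in all fits, the stem genes in part by the limits on Olfm4 and Lgr5, with medians of -1.97, -2.22 and -1.76 and -1.31, -0.84 and -1.21 and -0.03, 0.03 and 0.08 over all genes. Slc12a2 was at 215 and 323 CPM in cycling cells, 28.6 and 50.3 in members and 1.56 and 2.48 in enterocytes, a difference of members from cycling cells of -2.66 ± 0.26 (edgeR adjusted p = 9.58e-06). Fbl was at 190.0 and 219 CPM in cycling cells, against 73.3 and 66.1 in members (difference -1.38 ± 0.26, edgeR adjusted p = 0.00179). Clca3b and Ifitm2, genes high in cycling cells at 324 and 722 and 417 and 344 CPM, were at 53.6 and 31.6 and 85.8 and 71.8 in members and 3.12 and 4.58 and 6.11 and 6.30 in enterocytes.

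A part of the absorptive genes was above the level of cycling cells. Brush border genes were higher in 9 of 21 (Ace, Anpep, Espn, Ezr, Mep1b, Myo1a, Pdzk1, Sis and Vil1), lipid absorption genes in 8 of 20 and villus tip genes in 5 of 15, with 0 lower in each. Nutrient transporters were not, with 1 of 14 higher (Slc2a2, the basolateral glucose transporter) and 0 lower, near the 7.61% of all genes. Without the set-aside barcodes 6 of 23 transporters were higher and 4 lower, and 6 of 19 villus tip genes were higher and 3 lower. Anpep, an aminopeptidase of the brush border, stood at 78.0 and 89.1 CPM in members and 33.4 and 20.9 in cycling cells, higher by 1.72 ± 0.31 (edgeR adjusted p = 0.00123). Krt20 stood at 289.7 and 375 against 24.8 and 25.7 CPM and Maf at 334 and 219.8 against 62.5 and 62.7. Il18, an epithelial cytokine, stood at 417 and 157 against 28.2 and 20.9 CPM, higher by 3.64 ± 0.38 (edgeR adjusted p = 1.64e-05). Leap2, a peptide that blocks the ghrelin receptor, stood at 172 and 67.5 against 15.4 and 1.61, and Gda, guanine deaminase, at 299.6 and 289 against 30.0 and 27.3.

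Several relatives of the gate genes were above cycling cells in members. Of the glutathione and antioxidant genes 10 of 32 were higher in all fits (Cat, Gclm, Ggt1, Gpx4, Gsta1, Gsta4, Gstm1, Gstm3, Prdx5 and Srxn1) and 1 lower (Prdx4), with medians of 0.45, 1.00 and 0.82. Of these 10 genes, 7 were lower than in enterocytes in all fits, as given above. Gsta1, a glutathione transferase, stood at 2649 and 891 CPM in members, 167 and 94.8 in cycling cells and 2908 and 1477 in enterocytes, higher than cycling cells by 3.77 ± 0.41 (edgeR adjusted p = 2.08e-05). Aldh1a1 stood at 251 and 129, 12 and 8.04 and 266 and 209 CPM in the same order, higher than cycling cells by 4.39 ± 0.37 (edgeR adjusted p = 3.41e-06), and Aldh2 was also higher in all fits. Within members, Aldh1a1 went from 14.7 and 55.2 CPM to 157 and 301 and 535 and 456 over the bins. Of the ornithine list, Arg2, Azin1, Sat1 and Slc25a15, the mitochondrial ornithine carrier, were higher than in cycling cells and Cps1 was lower (of 17). Arg2 stood at 1289 and 509 against 309 and 268 CPM (difference 1.64 ± 0.38, edgeR adjusted p = 0.00673).

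Krt19 did not differ beyond its error between members and cycling cells with all members, at 2085 and 1206 against 1528 and 1524 CPM (difference 0.19 ± 0.35, edgeR adjusted p = 0.751). Without the set-aside barcodes it was higher by 0.74 (edgeR adjusted p = 0.000617), and in thinned cells by 0.50 (edgeR adjusted p = 0.0763). Its level in the bins of members was 2798 and 2130.4, 3355 and 2260.0 and 1275 and 837 CPM. The bins under 4% thus stood above cycling cells, and the last bin stood below them and above enterocytes.

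**Figure D5:**
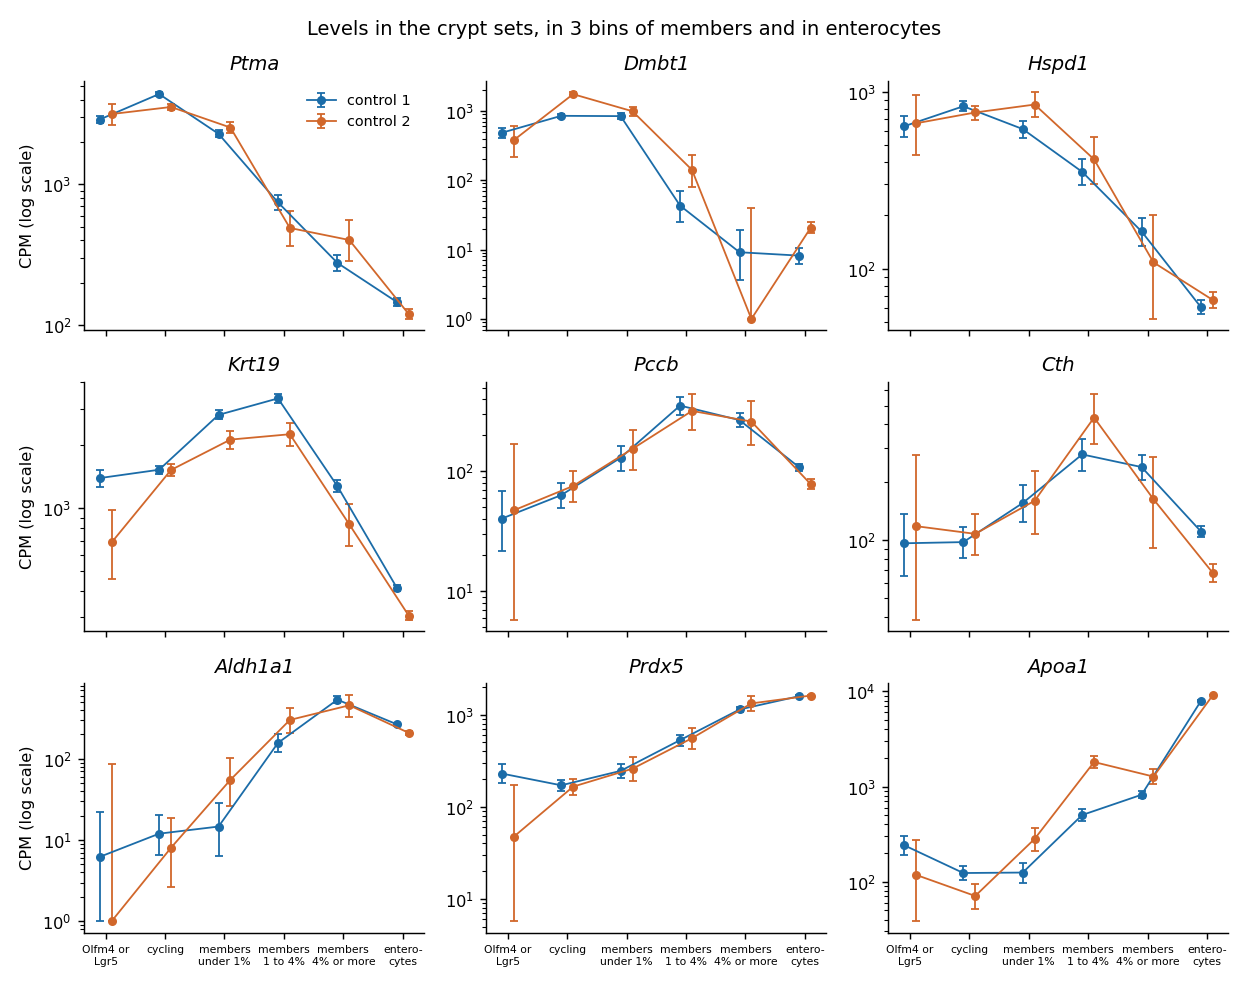
Levels in CPM (log scale; a level of 0 is drawn at 1) of 9 genes in the Olfm4 or Lgr5 cells, cycling cells, 3 bins of members by carrier share and enterocytes, with 95% Poisson intervals that cover counting error only. Ptma, Dmbt1 and Hspd1 decline from cycling cells through the bins of members, Krt19, Pccb, Cth and Aldh1a1 peak among members, and Prdx5 and Apoa1 are highest in enterocytes.

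A short list of genes was higher in members than in both cycling cells and enterocytes. With the 18 barcodes set aside, 17 of 2110 genes at 50 CPM or more in the members of both libraries exceeded both cycling cells and enterocytes by at least 1.5 times in each library. These genes were found by their values, so they have no test. The barcodes were set aside in members only, and cycling cells and enterocytes were kept whole. Olfm4 or Lgr5 cells and barcodes above the cap on Apoa4 were not part of this comparison. They were Adh1, Aldoa, Nars, Casp1, Coro2a, Eci1, Prpsap1, Pccb, Nlrp6, Cth, Gm49980, Gfpt1, Rflnb, Maob, Bcl2l15, Lzic and Emc9. Pccb, a subunit of mitochondrial propionyl-CoA carboxylase, stood at 244 and 227 CPM in members, 63.3 and 75.5 in cycling cells and 109 and 78.0 in enterocytes. Cth, the enzyme that makes cysteine from cystathionine, stood at 222 and 237, 97.6 and 108 and 111 and 67.4 CPM in the same order. Both were highest in the middle bin, at 355 and 320.2 and 279 and 433 CPM. Adh1, an alcohol dehydrogenase that oxidizes retinol, stood at 685 and 691, 201 and 279.7 and 393 and 433. Bcl2l15, a member of the Bcl2 family, stood at 103 and 76.4, 7.70 and 6.43 and 29.5 and 12.2. Nlrp6 and Casp1, of the inflammasome, stood at 205 and 258 and at 343 and 285 CPM in members, against 123 and 154 and 131 and 113 in cycling cells and 117 and 98.3 and 200.3 and 178 in enterocytes.

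The stem side of the gate was too thin to test. Barcodes that meet the gate except for 2 or more Olfm4 UMIs or any Lgr5 UMI numbered 48 and 9, below the 20 a library required. Ribosomal protein genes took a median of 44.7% and 16.9% of their UMIs. Olfm4, part of their rule, was at 1598 and 1937 CPM against 9.36 and 8.62 in members, while Aldh1b1 stood at 630.0 and 591 against 406 and 358. Slc12a2 stood at 286 and 1110.4 CPM against 28.6 and 50.3 and Sox9 at 127 and 402 against 10.4 and 23.0. In both libraries these crypt genes were higher in the Olfm4 or Lgr5 cells, with no test.

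The largest rises over all genes came from few barcodes. By the naming rule these were Etv1, Onecut3, Cadps, Scg2, Cck, Cacna2d1, Adcy2, Slc8a1, Galnt13 and Chgb, with log2 fold changes of 8.30 to 10.16 against enterocytes. Cck, the hormone cholecystokinin, stood at 7446 and 11625 CPM in members and 11.2 and 12.2 in enterocytes, yet it was found in 14 and 6 members, and 1 barcode held 66.1% and 54.3% of its UMIs. Without the set-aside barcodes Cck stood at 7.04 and 5.27 CPM, and Etv1, Onecut3, Cadps, Cacna2d1, Adcy2 and Galnt13 had 0 UMIs in members. Reg4 and Gpx3, the top of their lists by the rule, went from 1324 and 96.3 and 30.7 and 87.7 CPM to 2.93 and 2.64 and 0 and 0 without those barcodes. These genes belong to the enteroendocrine and other secretory barcodes of the gate, not to the bulk of the members. Not all secretory markers did so. Against cycling cells 5 of 7 goblet markers (Clca1, Fcgbp, Muc2, Tff3 and Zg16) and 3 of 5 Paneth markers were higher in all 3 fits, against 7.61% of all genes. Against enterocytes 1 goblet marker (Spink4) and 0 Paneth markers were, and without the set-aside barcodes 3 of each list were lower. What lies behind these levels was not tested.

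The muscarinic receptor genes, the subject of the series, were likewise rare. Chrm3 UMIs were found in 2 and 7 members (0.608% and 6.86%), 0.240% and 0.532% of enterocytes and 5.54% and 5.11% of barcodes with Ptprc. With cells thinned to 2000 UMIs the shares were 0.351% and 4.94% of members and 0.16% and 0.57% of enterocytes. They were 2.65% and 2.63% of Ptprc barcodes, and what lies behind that share was not tested. The level was 8.32 and 109 CPM in members and 2.73 and 3.24 in enterocytes, a difference of 3.27 ± 0.59 (edgeR adjusted p = 0.000927), and without the set-aside barcodes it was 1.76 and 0 CPM with a difference of -0.51. The call therefore rested on the secretory barcodes. Chrm1 had 0 and 8 UMIs in members, the latter in 3 barcodes, and 0 without the set-aside ones.

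The libraries differed among members in a few measures, given without a test since each is 1 library. Reg3b, an antimicrobial lectin, stood at 111 and 687 CPM in members and 198 and 2099 in enterocytes. Control 2 was the higher in both sets, and in cycling cells too (12.8 and 1196). Reg3g stood at 209.6 and 395 CPM in members. Malat1, a nuclear RNA, had a median over members of 137 and 359.7 CPM, and over enterocytes of 70.7 and 461. Control 2 was again the higher in both sets.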

How the data were processed

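Each deposited matrix holds counts, as whole numbers of UMIs for every gene in every barcode, per the file headers, and lists 32285 genes. The submitters' processing notes name Cell Ranger (6.1, 7.1.0) and mouse builds GRCm38 and mm10. The sources used here do not say which version did which step, which annotation was used or how the authors kept barcodes.

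UMIs were summed per set of barcodes and library and tested with edgeR 4.0.16 in R 4.3.3 (TMM, filterByExpr, quasi-likelihood, library as a block), adjusting p by Benjamini-Hochberg over all tested genes except the 16 rule genes and 13 mitochondrial genes. Members, enterocytes and cycling cells entered 1 joint fit. The design had foreseen a set of Olfm4 or Lgr5 cells as well, which had too few cells and was left out, so the fit has fewer sums than planned. Cells are not replicates. A p-value weighs the difference between sets against how far such differences vary between the 2 libraries, with spread information shared over genes. That spread may be technical. The members and gene lists were chosen with earlier results of these data known, and the secretory and haemoglobin limits (2% and 5% of UMIs) after seeing the data. H2az1, Pycr3, Pla2g2a and Ddit3 of the lists had no row of that name.

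Named by rule were, in each list, up to 4 genes with the largest change against enterocytes past an adjusted p of 0.05, alike in direction in both libraries and with at least 10 UMIs in one set of each library, and over all genes the 10 largest rises and falls (8 against cycling cells) at 50 CPM or more. Scrublet ran in scanpy 1.11.5 with an expected rate of 0.06. Tested on simulated counts for members against enterocytes (9173 genes), the fit recovered 35.2% of 88 genes changed by 1 on the log2 scale and 83.2% of 101 changed by 2, and called 0.14% of unchanged genes. Other scalings, filters, gates and DESeq2 1.42.0 were tried as alternatives. Some genes that these rules name are not reported here.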

Additional observations from a re-analysis of the deposited data

How the results depend on the processing

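Against enterocytes, 1575 genes were lower and 1412 higher. With total UMIs as the scaling 814 were lower, with DESeq2's Wald test 1001, and with thinned cells 629 lower and 693 higher. Without barcodes that hold UMIs of other cell types 931 were higher. These were barcodes with any UMI of Cd3d, Cd3e, Cd3g, Cd8a, Trbc2 or Cd7, or with 0.5% or more from a list of secretory markers. B cell, myeloid and erythroid markers were not used for it. Without the library as a replicate block 664 were lower and 841 higher. Against cycling cells, 936 were lower and 1072 higher. DESeq2 gave 602 lower, the fit without the block 581 lower and 611 higher, a gate of at least 2 UMIs of each gene 407 and 583, thinned cells 406 and 647, and the fit without the set-aside barcodes 1824 higher. Fewer cells, genes or UMIs entered the thinned, stricter and set-aside fits, and the cause of the other shifts was not tested. The share of members was 1.67% and 0.654% with at least 2 UMIs of each gene. It was 8.24% and 3.70% without barcodes that hold UMIs of other cell types (246 of 2986 and 63 of 1703), where members were fewer but all barcodes fell more. When the gate was applied to thinned cells it was 3.62% and 1.59% (182 of 5032 and 51 of 3200). Of those, 135 and 39 were members unthinned, so the barcodes were partly others.

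Of the genes named by rule, 5 changed direction without the set-aside barcodes, an alternative chosen after seeing the data: Acvr1 (-0.68), Bmpr1a (-0.06), Chrm3 (-0.51), Egr1 (-0.75) and Cck (-0.96 against enterocytes). With at least 2 UMIs of each gene Egr1 was at -0.00 and Cck at -1.61 against enterocytes and -0.71 against cycling cells, and without barcodes of other cell types Egr1 was at -0.46. Without the replicate block, 122 named values kept their side of the threshold and 16 lost it. With either library left out, a value without a test, all 138 kept their direction. The naming rule asked for like directions in both libraries, so this count was largely fixed in advance and is no check. Medians of the ornithine, transcription factor and stress lists against enterocytes (-0.07, -0.13 and -0.16) became 0.28, 0.23 and 0.21 with total UMIs alone, and that of the keratin list against cycling cells went from 0.10 to -0.03. The comparison with Olfm4 or Lgr5 cells was not run, since control 2 held 9 such cells. Depth limits what can be seen: single molecules decide membership, and genes near a few CPM rest on fewer than 10 UMIs in control 2.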
